A study of Rattus norvegicus with 10 samples.

Results

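The growth factors described here are the platelet-derived growth factors Pdgfa, Pdgfb and Pdgfc, the fibroblast growth factors Fgf1 and Fgf2 with the receptor Fgfr1, and the vascular endothelial growth factors Vegfa, Vegfb and Vegfc with the co-receptor Nrp1. Every probe set whose single annotated gene symbol was on this list was taken, bright or dim. The rule gave 12 of 15866 probe sets, which stood for 9 of the 10 listed genes and for 9 of 10411 named genes in all. Pdgfb was not analysed here, because no probe set carried its symbol in the annotation used. Fgfr1, Vegfa and Nrp1 were each read by 2 probe sets, and these share a transcript and an RNA sample.

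RNA came from the abdominal aorta of untreated inbred BN (Brown Norway) rats and of untreated inbred LOU rats, with 5 Affymetrix arrays per strain and a labelled age of 5 weeks throughout. The husbandry notes allow an age of up to 18 weeks, the extraction notes also mention thoracic aorta, and neither sex nor the use of a separate rat for each array is stated. P-values therefore measure the spread between these arrays, which may be technical. The series title asks for the genetic basis of arterial traits of BN, and the comparison throughout is BN minus LOU.

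These growth factors are secreted ligands that bind receptor tyrosine kinases at the cell surface. PDGF ligands act on the smooth muscle cells and fibroblasts of the vessel wall through Pdgfra and Pdgfrb. FGF ligands bind their receptors together with heparan sulphate chains, and VEGF ligands act mainly on endothelial cells, with Nrp1 as a co-receptor. Inside the cell the receptors share the Ras-ERK kinase cascade, which switches on early response genes and its own inhibitors.

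A signal is the brightness of a probe set on a linear scale that the authors had scaled to a common trimmed mean on every array, and signals of different probe sets cannot be set against each other. Median signals per array ran from 97.4 to 105. Background on an array was set at the 95th percentile of its 45 bacterial control signals, which came to 21.2 to 49.2. It was lowest on BN array 5 and highest on BN array 1. Markers of the vessel wall were present, with 11 of 11 measured smooth muscle genes and 14 of 15 endothelial genes above background on all 10 arrays. Over all genes 7370 of 10411 were. So were 12 of 12 fibroblast, 8 of 9 white adipocyte and 8 of 9 macrophage genes, so these counts do not single out the aorta. Markers of other tissue varied between arrays. BN array 3 stood apart in Schwann cell and nerve markers, with a list mean of 2.35 on the log2 scale after each gene was centred, against at most 0.35 on the other arrays. LOU array 1 stood apart in lymphocyte markers (1.71, against -0.40 to 0.00 elsewhere) and in macrophage markers (0.91, against -0.31 to 0.10).

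The upstream sequences of Vegfa and Vegfb are shown because Vegfb and the brighter Vegfa probe set had their highest signal on the same LOU array. The dimmer Vegfa probe set was highest on a BN array, as given further on. RefSeq promoter windows of the GRCr8 assembly, which is of a BN rat, matched 9 of the 10 listed genes, and Fgfr1 was not matched. Each line gives the 250 bases before the annotated start, 5′ to 3′ on the gene's strand, with the GC box GGGCGG or its reverse complement CCGCCC in capitals. Vegfa lies at chr9:22452604-22452853 on the plus strand and Vegfb at chr1:213607153-213607402 on the minus strand.
Vegfa: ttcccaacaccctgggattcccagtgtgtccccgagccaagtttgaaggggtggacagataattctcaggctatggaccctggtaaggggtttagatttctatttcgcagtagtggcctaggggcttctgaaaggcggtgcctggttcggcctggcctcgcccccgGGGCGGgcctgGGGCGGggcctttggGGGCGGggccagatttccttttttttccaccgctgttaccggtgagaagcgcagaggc
Vegfb: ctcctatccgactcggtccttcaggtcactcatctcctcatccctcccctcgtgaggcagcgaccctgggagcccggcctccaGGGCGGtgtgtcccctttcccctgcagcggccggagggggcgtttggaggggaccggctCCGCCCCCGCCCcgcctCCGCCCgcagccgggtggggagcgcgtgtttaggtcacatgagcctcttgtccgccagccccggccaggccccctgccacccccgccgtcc
The Vegfa window held 3 GC boxes and the Vegfb window 4, 2 of which lie end to end. A second annotated Vegfa start, not shown, had 0 in its window. Of the 9 genes, 5 held at least 1 GC box (Pdgfa, Pdgfb, Vegfa, Vegfb and Vegfc), against 30.5% of all 33469 windows of this length. The hypoxia response core ACGTG was found in 1 of the 9, Fgf2, against 16.6% of all windows. The EGR site GCGGGGGCG was found in 1, Vegfb, where it overlaps 2 GC boxes, against 2.4% of all windows. Both strands were searched, and a match describes letters in these windows only. No LOU sequence was used here.

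None of the 12 growth factor probe sets passed limma's test between BN and LOU at an adjusted p of 0.05, and in none did the strains' signals separate. Over all 15866 probe sets 0.788% passed, 0.246% with higher and 0.542% with lower signals in BN, and in 4.18% the strains did not overlap. At an unadjusted p of 0.05 1 of the 12 passed, an Fgfr1 probe set, against 13.3% of all probe sets. The adjusted p-values of the 12 ran from 0.343 to 0.982. Differences were negative, that is lower in BN, in 9 of the 12 and positive in 3, against 53.5% negative over all probe sets. With each gene read once, from its brightest probe set, 6 of 9 were negative and 3 positive, against 52.4% negative over all genes. The median of the 12 was -0.22 on the log2 scale, against -0.03 over all. Their median size without sign was 0.26, against 0.22. Of the 12, 10 were above background on all 10 arrays, the exceptions being Pdgfc and Fgf1.

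**Figure D1:**
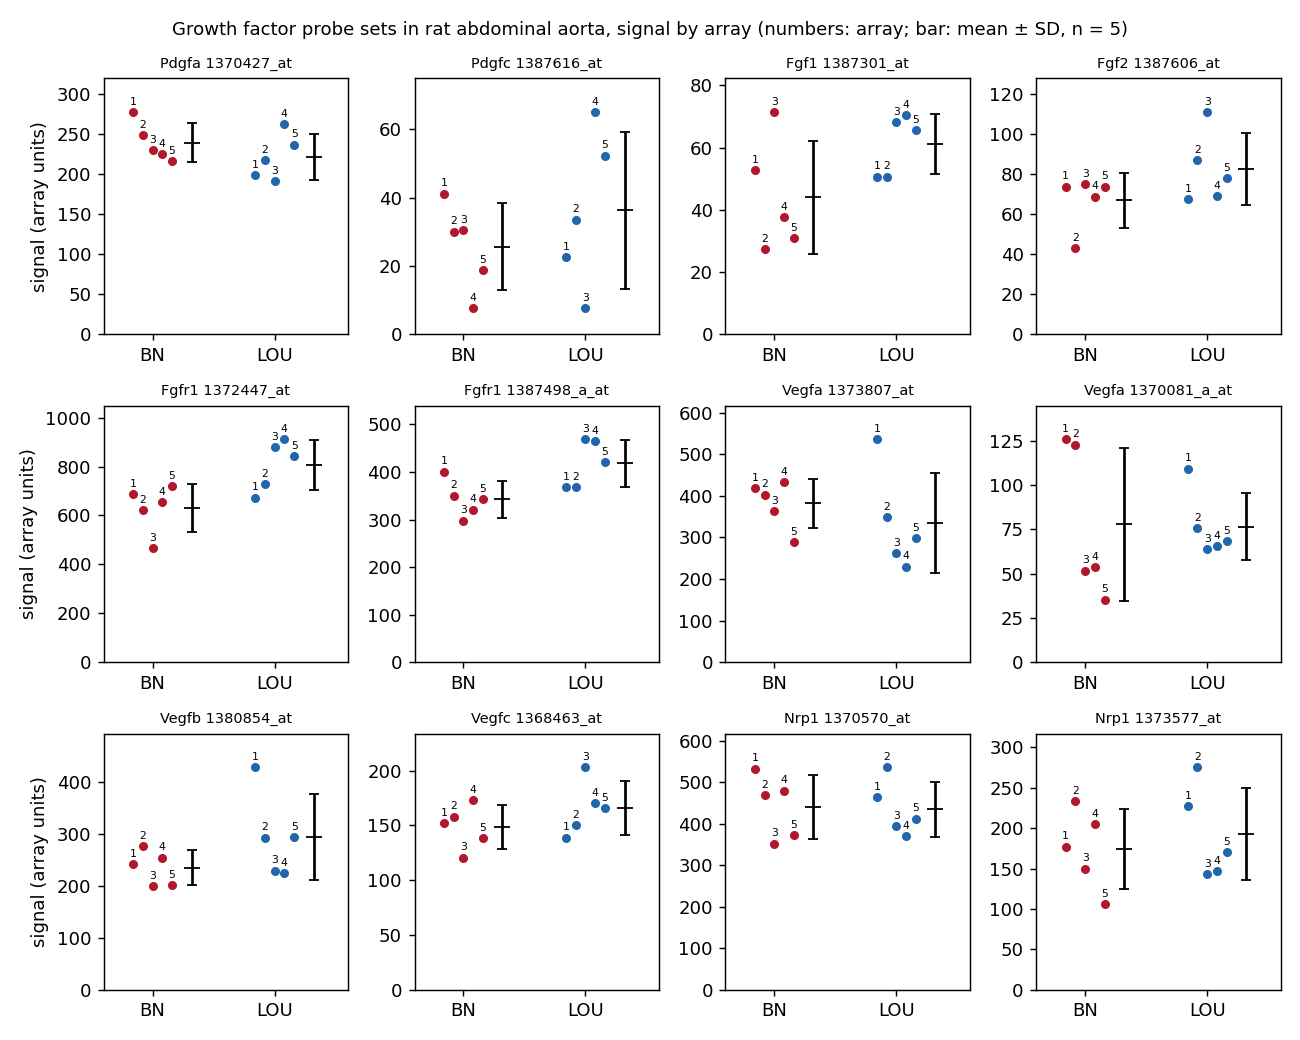
Signal (array units, linear axis from 0) of the 12 growth factor probe sets on the 5 BN arrays (left, red) and the 5 LOU arrays (right, blue), with array numbers at the points and the mean ± SD as a bar. BN and LOU points overlap in every panel, and LOU array 1 is the highest point for the brighter Vegfa probe set and for Vegfb.

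Fgfr1, an FGF receptor of mesenchymal cells, gave the smallest p-values of the members in its 2 probe sets. The brighter of them had signals of 687.6, 622.5, 465.0, 655.6 and 719.3 on BN arrays 1 to 5, against 672.9, 727.3, 879.8, 911.3 and 842.3 on LOU arrays 1 to 5. LOU arrays 3, 4 and 5 were the highest and BN array 3 the lowest, while BN arrays 1 and 5 lay above LOU array 1. The mean was 630 ± 99.0 in BN and 807 ± 102 in LOU (SD, n = 5 each), a log2 difference of -0.36 with a standard error of 0.15. Its 95% interval ran from -0.70 to -0.02, and the adjusted p was 0.343 (unadjusted p = 0.0317 by a two-sided exact permutation test).

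The dimmer Fgfr1 probe set, which by the array maker's naming reads several transcripts of the gene, also differed by a negative value. Its signals were 400.9, 350.2, 297.8, 320.6 and 342.1 on BN arrays, against 367.5, 368.1, 468.5, 465.5 and 421.4 on LOU arrays. BN arrays 2 to 5 lay below every LOU array, and BN array 1 lay above LOU arrays 1 and 2. The log2 difference was -0.29 (SE 0.13, interval -0.58 to 0.00, adjusted p = 0.378). Set against each other on each array, the probe sets differed by -0.87 in BN and -0.95 in LOU (log2), a strain difference of 0.08 (exact permutation p = 0.397, adjusted 0.397 over 3 genes).

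BN array 3, where both Fgfr1 probe sets were lowest, also had the highest ratio of the 3′ to the 5′ beta-actin control probe sets, 5.39 against 3.47 to 4.59 on the other arrays. The same ratio for the Gapdh controls was 1.49 on BN array 3, inside the 1.38 to 2.01 of the other arrays. Without BN array 3 the Fgfr1 differences were -0.26 in the brighter and -0.24 in the dimmer probe set. The part of nerve tissue and of RNA quality in the low signal on BN array 3 was not tested.

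Both Fgf1 and Fgf2, the ligands without a classical secretion signal, were read by 1 probe set each. Fgf1 had signals of 52.8, 27.5, 71.5, 37.6 and 31.0 on BN arrays, against 50.7, 50.7, 68.2, 70.4 and 65.7 on LOU arrays. BN array 3 was the highest of all and BN arrays 2, 4 and 5 were below every LOU array. The mean was 44.1 ± 18.1 in BN, where 4 of 5 arrays were above background, and 61.1 ± 9.67 in LOU, where all 5 were. Fgf1 had the largest difference of the members, -0.55 on the log2 scale, with an interval of -1.13 to 0.03 and an adjusted p of 0.403. Without BN array 3 it was -0.75, with an adjusted p of 0.211. Fgf1 is abundant in neurons in textbook accounts, and BN array 3 is the array with the high nerve markers. Their part in the Fgf1 signal was not tested.

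Fgf2 had signals of 73.8, 42.9, 75.2, 68.8 and 73.8 on BN arrays, against 67.4, 87.1, 111.1, 69.0 and 78.0 on LOU arrays. LOU arrays 2, 3 and 5 were above every BN array, and BN array 2 stood low. The mean was 66.9 ± 13.6 in BN and 82.5 ± 17.8 in LOU, with a log2 difference of -0.31 and an interval of -0.76 to 0.14.

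Among the PDGF ligands, Pdgfa, which is made by smooth muscle and endothelial cells, was the steadiest member across all 10 arrays, with a 1.45-fold range. Its signals were 277.7, 248.3, 229.6, 224.7 and 216.4 on BN arrays, against 198.8, 217.2, 191.5, 262.8 and 236.9 on LOU arrays. BN array 1 was the highest, LOU arrays 1 and 3 were below every BN array, and the others overlapped. BN and LOU differed by 0.12 on the log2 scale with an interval of -0.17 to 0.40, so that the interval held fold changes between 0.888 and 1.32.

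Pdgfc, a ligand that proteases must cut before it can bind its receptor, was not above background on any BN array and was above it on 3 of 5 LOU arrays. Signals were 41.2, 30.1, 30.4, 7.7 and 18.8 on BN arrays, against 22.7, 33.6, 7.6, 65.1 and 52.3 on LOU arrays. The counts above background rest on each array's own level. BN array 1, at 41.2, lay below its 49.2, while LOU array 2, at 33.6, lay above its 29.8. LOU arrays 4 and 5 were above every BN array, and LOU array 3 had the lowest signal of all. The values lay too near background for a bound on the fold, and the fitted interval was the widest of the members, -1.75 to 1.01 on the log2 scale.

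Vegfa, the ligand that drives the growth of new vessels and that responds to hypoxia, did not differ beyond the spread between arrays in either probe set. The brighter one had signals of 419.3, 403.1, 363.9, 433.9 and 288.5 on BN arrays, against 535.9, 348.3, 261.7, 229.8 and 298.1 on LOU arrays. LOU array 1 was the highest of all and LOU array 4 the lowest, so the LOU arrays enclosed the whole BN range. The strains differed by 0.24 on the log2 scale (interval -0.27 to 0.75, adjusted p = 0.689), and without LOU array 1 it was 0.43.

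The dimmer Vegfa probe set reads several transcripts by its name. Its signals were 125.7, 122.8, 51.6, 53.4 and 35.3 on BN arrays, against 109.2, 75.5, 63.7, 65.5 and 68.3 on LOU arrays. BN arrays 1 and 2 were above every LOU array and BN arrays 3, 4 and 5 below every one. The log2 difference was -0.13 (interval -0.93 to 0.67), and it turned to 0.11 without BN array 5 and to 0.01 without LOU array 1. The dimmer minus the brighter probe set, taken on each array, averaged -2.46 ± 0.68 in BN and -2.10 ± 0.19 in LOU (log2, SD, n = 5 each), a strain difference of -0.37 that did not pass (exact permutation p = 0.238, adjusted 0.397 over 3 genes).

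Vegfb, a VEGF ligand that is abundant in heart, muscle and fat, had signals of 241.7, 276.5, 199.0, 254.1 and 200.9 on BN arrays, against 428.4, 292.7, 229.0, 225.0 and 293.1 on LOU arrays. LOU arrays 1, 2 and 5 were above every BN array and LOU arrays 3 and 4 lay inside the BN range. The mean was 234 ± 33.9 in BN and 294 ± 82.2 in LOU, with a log2 difference of -0.30 and an interval of -0.73 to 0.13 (adjusted p = 0.557). Without LOU array 1 it was -0.15.

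Fat markers varied widely between arrays. Of 12 listed white adipocyte genes 9 were measured and 8 were above background on every array, while leptin (Lep) was never above it. Their signals summed to between 3341.7 and 18127.2 in BN, against 5208.9 to 22170 in LOU. The centred list means were 0.55, 0.81, -0.39, 0.33 and -1.16 on BN arrays 1 to 5, and 0.92, 0.40, -0.76, -0.77 and 0.06 on LOU arrays 1 to 5. LOU array 1 had the highest adipocyte mean and the highest signal of Vegfb and of the brighter Vegfa probe set, and BN array 5 had the lowest adipocyte mean and the lowest signal of the dimmer Vegfa probe set. Brown adipocyte markers were highest on BN arrays 1 and 2, at 1.54 and 1.75, where the dimmer Vegfa probe set was highest too. The order did not hold throughout: the second highest Vegfb signal was on LOU array 5, with an adipocyte mean of 0.06, and Vegfc was highest on LOU array 3, with a mean of -0.76. LOU array 1 was also the array with the high lymphocyte and macrophage markers. The part of fat and of immune cells in the VEGF signals was not tested, and in whole tissue fewer cells of a type and less RNA per cell cannot be told apart.

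**Figure D2:**
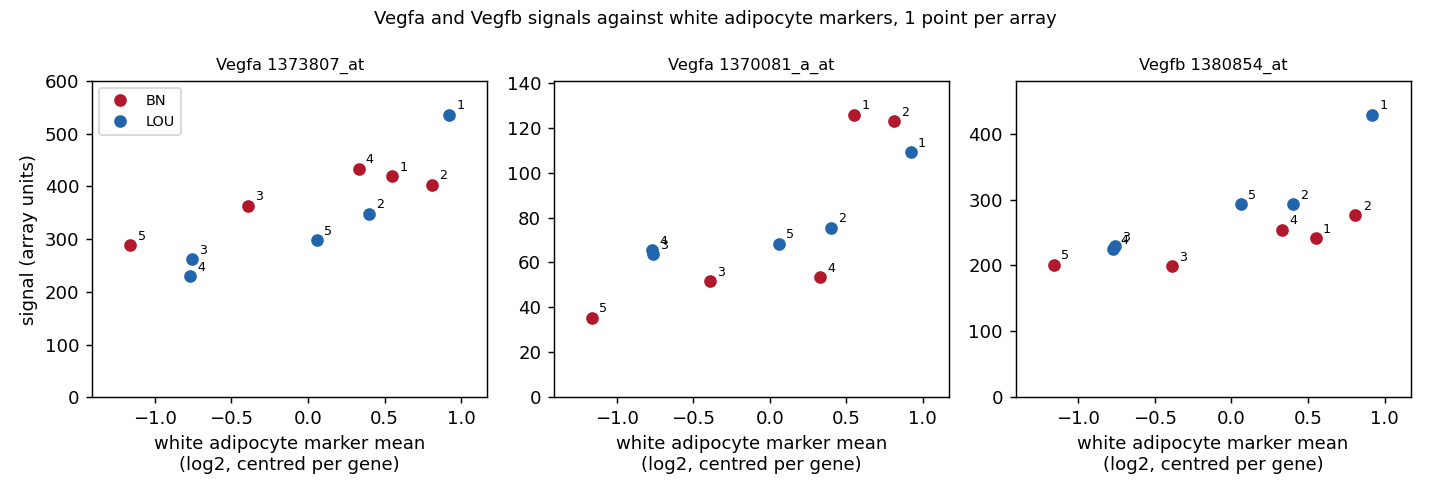
Signal (array units) of both Vegfa probe sets and of Vegfb against the mean of 9 white adipocyte markers (log2, each gene centred over the 10 arrays), with 1 numbered point per array, BN in red and LOU in blue. LOU array 1, at a marker mean of 0.92, is the highest point for the brighter Vegfa probe set (left panel) and Vegfb (right panel), and BN array 5, at -1.16, is the lowest for the dimmer Vegfa probe set (middle panel).

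Vegfc, the ligand of lymphatic vessel growth, had signals of 152.2, 158.0, 120.6, 173.3 and 138.6 on BN arrays, against 138.9, 150.2, 203.3, 170.1 and 166.1 on LOU arrays. The strains overlapped, with BN array 4 above every LOU array but array 3. BN and LOU differed by -0.16 on the log2 scale, with an interval of -0.48 to 0.17.

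Nrp1, which binds both VEGF and class 3 semaphorins, gave the smallest difference of the members in its brighter probe set. Signals were 532.9, 468.6, 351.7, 479.5 and 371.5 on BN arrays, against 464.0, 536.5, 394.3, 369.6 and 412.0 on LOU arrays, and the means of 441 ± 76.6 in BN and 435 ± 66.3 in LOU differed by less than either SD. The interval of the log2 difference of 0.01, -0.34 to 0.37, held fold changes from 0.789 to 1.29, and the sign turned when single arrays were left out. The other Nrp1 probe set ran from 106.1 to 233.6 in BN (median 177) and from 143.4 to 275.7 in LOU (median 170). Its log2 difference of -0.15 had an interval of -0.72 to 0.42 and turned to 0.02 without BN array 5.

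For 7 members above background on every array, genes with a like course over the 10 arrays were found among 7369 others, by Pearson's r of log2 signals after each strain's mean was taken off. These values are a description, since arrays share their RNA, tissue make-up and scaling. Picking the highest r among 7369 over 10 arrays also favours large values. Closest to Fgfr1 were the sorting receptor gene Sort1 (r = 0.98) and the RNA-binding protein gene Hdlbp (0.96). Like Fgfr1, both were lowest on BN array 3, at 534.0 for Sort1 and 832.9 for Hdlbp, and no r was taken without that array. Closest to Vegfa were RT1-DMb (0.97), a class II antigen loading gene, and Lcp1 (0.96), a leukocyte actin-bundling gene, and without LOU array 1 these r were 0.93 and 0.89. Vegfb ran closest to Phgdh (0.98), the first enzyme of serine synthesis, and to Tmem79 (0.98). Nrp1 ran closest to the Wnt receptor gene Fzd4 (0.95) and to Slc45a3 (0.92). For Pdgfa the closest were Ppp1r10 (0.94) and Casz1 (0.93), for Fgf2 Mybbp1a (0.92) and Itpka (0.88), and for Vegfc Unc119b (0.91) and Pomt1 (0.90).

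The receptors of the PDGF ligands had negative differences that did not pass the test. Pdgfra, the receptor of fibroblasts, had signals of 192.1, 111.1, 97.6, 140.9 and 138.7 on BN arrays, against 222.4, 358.6, 249.1, 192.8 and 171.8 on LOU arrays. BN arrays 2 to 5 lay below every LOU array, and BN array 1 lay inside the LOU range. The log2 difference was -0.80 (interval -1.33 to -0.27, adjusted p = 0.178). Pdgfrb, the receptor of smooth muscle cells and pericytes, ranged from 169.0 to 386.1 in BN and from 325.0 to 432.6 in LOU, with a log2 difference of -0.45 (adjusted p = 0.409). Of 7 listed PDGF ligands and receptors 6 were measured and none passed. The difference was negative in 5 of them, against 52.4% of all genes. The median of the 6 was -0.40, against -0.02 over all genes read from their brightest probe set. Both Pdgfc and Pdgfd, whose signals lay near background, are among the 5, and Pdgfc is a middle value behind the median. Pdgfrl, a receptor-like protein, differed by -0.43, and the ligand gene Pdgfd was above background on 1 BN array and no LOU array, too near background for a fold.

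Pdgfra is also on the list of adventitial fibroblast markers. Of 13 listed fibroblast genes 12 were measured, all above background on every array, 11 had a negative difference and 1, Ogn, passed with lower signals in BN, against 0.720% of all genes in either direction. The list's summed signal was 15169.3 to 19387 in BN, against 19259.5 to 32067.4 in LOU. LOU array 2 had both the highest list mean (0.75) and the highest Pdgfra signal. The part of fibroblasts in the receptor values was not tested.

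Of 30 listed FGF ligands, receptors and binding proteins 29 were measured, 7 were above background on all arrays and 5 on none (Fgf3, Fgf4, Fgf18, Fgf20 and Kl). None passed, and 4 had an unadjusted p under 0.05, against 13.2% of all genes. The receptor gene Fgfr2, read from its brightest probe set, had signals of 178.2, 233.5, 236.7, 225.6 and 359.4 on BN arrays, against 331.8, 285.4, 464.0, 539.4 and 497.3 on LOU arrays. As for Fgfr1, LOU arrays 3, 4 and 5 were the highest. Fgfr2 differed by -0.78 on the log2 scale (interval -1.29 to -0.26, adjusted p = 0.181), and its other probe sets above background on all arrays gave -0.04 and 0.10. Fgf7, a ligand made by fibroblasts, differed by -1.20 with 2 of 5 BN arrays and all LOU arrays above background (adjusted p = 0.206), and by -0.57 with signals floored at 32 or -0.77 with a pseudocount of 16, and the intracellular family member Fgf13 by -0.74. Fgfr3 was above background on 1 BN array and 3 LOU arrays, and its difference of 0.25 had an interval of -1.01 to 1.51. Fgfr4 was above background on 1 BN array and no LOU array, too near background for a fold.

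Among 10 VEGF ligands, receptors and co-receptors none passed, and 6 differences were positive and 4 negative, with a median of 0.09. The main VEGF receptor Kdr ranged from 176.7 to 403.1 in BN and from 126.9 to 296.8 in LOU, a log2 difference of 0.47 (interval -0.16 to 1.10). Flt1, which binds Vegfa, Vegfb and Pgf, differed by 0.18 in its brightest probe set, and by -0.32 and 0.01 in its others. The lymphatic receptor gene Flt4 differed by -0.34, with 1 BN array and 3 LOU arrays above background. Nrp2 differed by 0.26, with 2 arrays of each strain above background. In the main fit each of these intervals held 0. With signals floored at 32 the differences were 0.14 for Flt4 and 0.08 for Nrp2. Vegfd, a ligand close to Vegfc, differed by -0.49 (adjusted p = 0.384). Endothelial markers as a list had 6 positive and 9 negative differences among 15 measured genes, with a median of -0.02 and no member past the test. Kdr and Flt1 are themselves on that list, both among the 6.

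The placental growth factor gene Pgf was read by 2 probe sets. The brighter one ranged from 59.4 to 118.6 in BN and from 62.9 to 104.5 in LOU, a log2 difference of 0.17. The dimmer one had signals of 20.8, 38.9, 59.4, 92.1 and 103.4 on BN arrays, against 18.8, 21.8, 21.8, 23.8 and 14.5 on LOU arrays. It was above background on BN arrays 2 to 5 and on no LOU array, but BN array 1 lay inside the LOU range. With LOU set at its background level, the BN mean of log2 signals was 1.79-fold higher. This is not a strict bound, since BN array 1 entered with a signal below its background of 49.2. From BN array 1 to 5 the signals rose while background fell from 49.2 to 21.2. The fitted difference did not pass (limma adjusted p = 0.163).

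**Figure D3:**
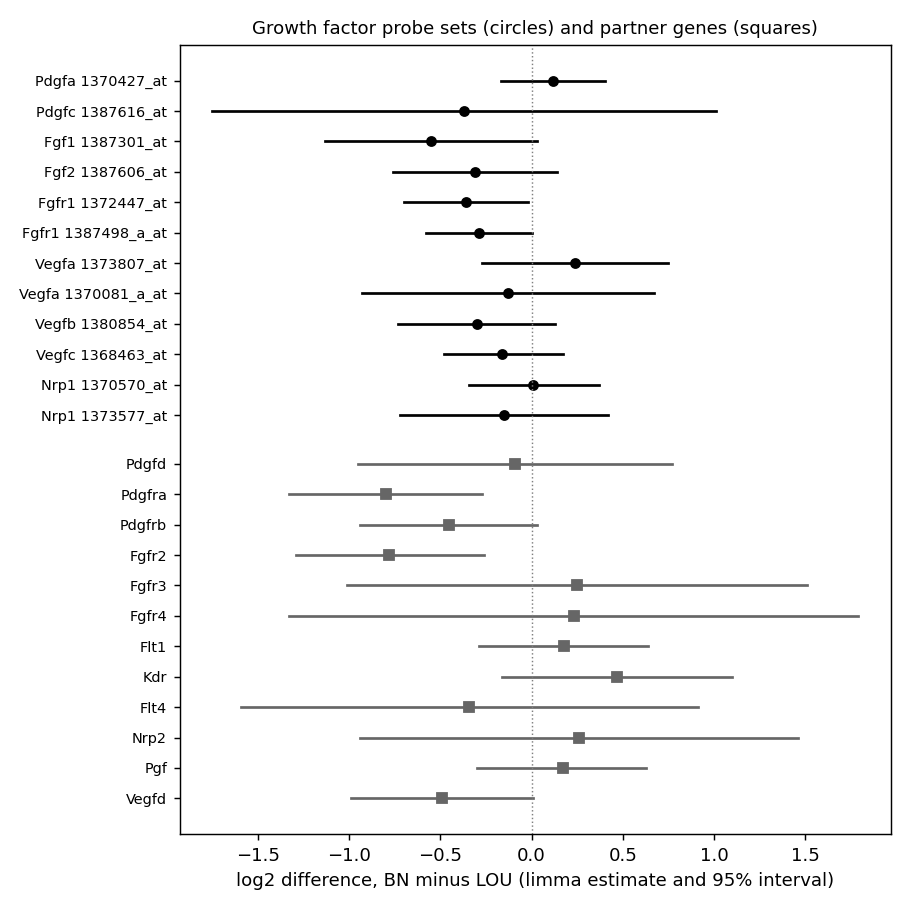
Log2 difference of BN minus LOU (limma estimate, with its 95% interval as a line) for the 12 growth factor probe sets (circles) and 12 partner genes read from their brightest probe set (squares). Of the growth factor intervals, that of the brighter Fgfr1 probe set, -0.70 to -0.02, ends below 0 before adjustment, and Pdgfc has the widest.

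Of the genes around the growth factors, a heparan sulphate carrier and a collagen hydroxylase subunit passed the test over all probe sets. Gpc3, a glypican that holds growth factors at the cell surface, had signals of 142.0, 99.4, 87.0, 61.4 and 97.4 on BN arrays, against 271.5, 520.6, 351.7, 193.1 and 203.7 on LOU arrays. The strains did not overlap, and LOU array 2, the array with the highest fibroblast marker mean, was the highest. Gpc3 fell by 1.61 on the log2 scale (SE 0.31, limma adjusted p = 0.0460). It lost the call in 14 of 19 alternatives, with adjusted p-values of 0.0533 to 0.153, among them median centring and every fit without 1 array other than the fit without BN array 1. It was the 1 gene of 13 measured carriers to pass, against 0.480% of all genes called lower in BN, 7 differences in the list were positive and 6 negative, and the median was 0.00.

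P4ha2, a collagen prolyl hydroxylase subunit that was listed as a hypoxia target, ranged from 289.9 to 362.8 in BN and from 532.2 to 796.6 in LOU. It fell by 0.90 (log2, SE 0.14, limma adjusted p = 0.0175), and its second, dimmer probe set differed by 0.06. P4ha2 lost the call in 4 of 19 alternatives, among them the fits without BN array 2, LOU array 2 or LOU array 3, with adjusted p-values of 0.0537 to 0.122. It also lost the call when a gene was read as the mean of its probe sets, where Gpc3 and Ier2 were the 2 pathway genes called. P4ha2 was the 1 gene of 25 measured hypoxia genes to pass, against 0.480% of all genes called lower in BN. Of the 25, 10 had an unadjusted limma p under 0.05 in either direction, against 13.2% of all genes. The list held 19 positive and 6 negative differences, against 52.4% negative over all genes, with a median of 0.28 against -0.02. Brown adipocyte markers had positive differences in 8 of 8 measured genes, with a median of 0.91 and none past the test, and 4 of the 8 were above background on every array. Their signals summed to 2165.6 to 19821.9 in BN, against 1390.1 to 11477.4 in LOU, and their part in the hypoxia list's values was not tested.

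Of the genes that the ERK cascade switches on, none passed. In the 3 with the smallest p every BN signal lay below every LOU signal. Choosing genes by p favours such separation, so it adds no support. Egr1, a zinc finger factor, had signals of 741.1, 523.1, 294.4, 232.4 and 374.3 on BN arrays, against 1069.6, 1196.5, 5176.6, 8312.2 and 5663.8 on LOU arrays. The strains did not overlap, and LOU arrays 3, 4 and 5 stood far above LOU arrays 1 and 2. Egr1 differed by -2.99 on the log2 scale (interval -4.35 to -1.62, adjusted p = 0.0624). Ier2 and Ier3, both early response genes, differed by -1.37 and -1.18 (adjusted p = 0.0522 and 0.118), also without overlap. Of 17 measured response genes 13 had a negative difference, with a median of -0.60 against -0.02 over all genes, and in 4 the strains did not overlap, against 4.38% of all genes. An unadjusted limma p under 0.05 was found for 8 of the 17, against 13.2% of all genes. The list's centred means were -0.04, -0.25, -0.80, -0.40 and -0.74 on BN arrays 1 to 5, against 0.07, -0.28, 0.75, 0.98 and 0.71 on LOU arrays 1 to 5. LOU arrays 3, 4 and 5 were above all others, LOU array 2 lay inside the BN range and LOU array 1 just above it. What set LOU arrays 3, 4 and 5 apart was not tested, and neither was the part of ERK activity in these values.

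Of 10 measured inhibitors that the receptors induce none passed, with 6 positive and 4 negative differences and a median of 0.06. Dusp6, the phosphatase of ERK, ranged from 103.1 to 182.4 in BN and from 168.6 to 349.3 in LOU, where BN array 2 alone lay inside the LOU range. Its log2 difference was -0.95 (adjusted p = 0.102), and its other probe sets gave -0.09 and -2.97, the second with 2 of 5 BN arrays above background. Rgs2, a brake on G-protein signalling, differed by 0.48 (adjusted p = 0.358) and Lrig1, an inhibitor of growth factor receptors, by -0.23. Among 24 adaptors and kinases of the Ras-ERK path none passed, with a median of -0.01. Rasa1, which turns Ras off, had BN signals of 171.9 to 190.7 and LOU signals of 226.1 to 292.9 without overlap, a log2 difference of -0.51 (adjusted p = 0.0746). It was the 1 gene of these 24 without overlap, against 4.38% of all genes. Ptpn11, a phosphatase that passes the signal on, and the ERK kinase gene Map2k2 differed by 0.35 and 0.34. Ier2 passed in 5 of 19 alternatives, Egr1 and Rasa1 in 4, Dusp6 in 2 and Ier3 in 1, each of them in the fit without dim probe sets among others or alone. Fos, an early response gene outside the naming rule and chosen after its values were seen, was called without LOU array 2.

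**Figure D4:**
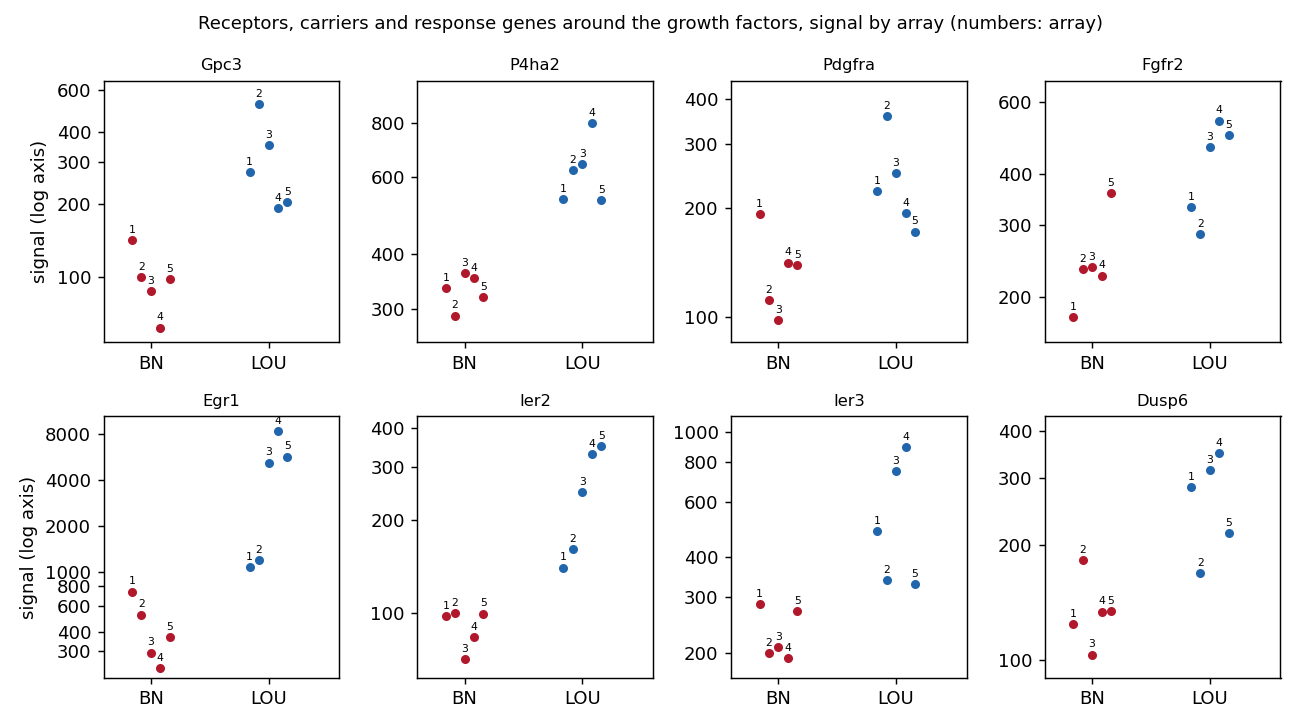
Signal on a log axis of 8 genes around the growth factors on the 5 BN arrays (left, red) and the 5 LOU arrays (right, blue), with array numbers at the points. Gpc3 and P4ha2 passed the test, the BN and LOU points of Gpc3, P4ha2, Egr1, Ier2 and Ier3 do not overlap, and LOU arrays 3, 4 and 5 are the highest for Fgfr2 and Egr1.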

How the data were processed

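The values analysed are the intensity per probe set that the authors deposited, on a linear scale, with trimmed means of 200.05 to 200.06 on every array. RMA is named, with no version, in the submitters' processing notes, although the values are not on its log2 scale. The planned test assumed this linear scale. Values of 0 (4 in all) were set to 0.1 and log2 was taken. After 57 controls were left out, 15866 probe sets were fitted by lmFit and eBayes of limma 3.58.1 under R 4.3.3 (strain as the only term, two-sided), with Benjamini-Hochberg adjustment over all of them and a threshold of 0.05. All 10 arrays entered each fit. Symbols came from the platform annotation, 12783 probe sets having 1 symbol, 312 several and 2771 none, and 12748 were updated by gene identifier through RefSeq's GRCr8 table, used for names. Listed genes were represented by their brightest probe set on average (log2). The background rule was taken from an earlier analysis of these data.

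Exact permutation tests used all divisions of the 10 arrays, whose smallest p is 0.00794. Named genes are the members, 12 partner genes fixed whatever their values, the called genes of each pathway list or otherwise up to 3 with the smallest p, and 2 genes most like each member. Members, lists and rules were chosen with earlier results of these data known. Replicate numbers in the titles were checked for pairing: deviations from the strain mean correlated between -0.05 and 0.01 for the same number, so they pair nothing. Python 3.11.15 with numpy 2.4.6, pandas 2.3.3, scipy 1.17.1 and matplotlib 3.10.9 made summaries and plots. Fits were tested on simulated data, where 45.2% of log2 changes of 1 were called and 79.8% of changes of 2. Smaller changes, the size of the member differences, were not simulated, so not passing does not show equal strains. Alternatives covered scaling, dim signals, the variance model, array weights, the block and single arrays. The number of arrays limits the precision.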

Additional observations from a re-analysis of the deposited data

Results flagged for a closer look

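Among 24 sets of 5 values (12 growth factor probe sets in each strain), 1 held an array far from the others, about what chance gives at 1 in 20. Fgf2 had a signal of 42.9 on BN array 2, while the other 4 BN arrays lay between 68.8 and 75.2, a gap of 0.84 of the whole range on the log2 scale. Without BN array 2 the difference in Fgf2 was -0.15.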

How the results depend on the processing

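No growth factor probe set passed in any of 19 alternatives, and the smallest adjusted p reached was 0.211. The count of probe sets called over the whole table was 125 and moved to 253 without the dimmest 40% of probe sets, 204 with a pseudocount of 16, 242 with a variance trend, 75 without BN array 3 and LOU array 1 (chosen after seeing the data), and between 63 and 127 with 1 array left out. The listed pathway genes called numbered 2, and 1 with median centring, 9 without dim probe sets, 7 with the pseudocount, 8 with the variance trend, 4 with array weights, 1 without BN array 3 and LOU array 1, and 0 to 3 with 1 array left out. Reading each gene as the mean of its probe sets also called 2, with Ier2 in place of P4ha2. A fit with the replicate block called 23 probe sets, of which 19 were shared with the 125, and 0 pathway genes; the samples share only a number. The cause was not tested in any of these.

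For single probe sets and genes, signs turned only for differences whose interval held 0. List medians, which have no interval, also crossed 0 in some lists with 1 array left out. The VEGF list ran from -0.05 to 0.18 and the inhibitors that the receptors induce from -0.02 to 0.13. The heparan sulphate carriers ran from -0.14 to 0.04 and the semaphorins and plexins from -0.10 to 0.03. With 1 array left out, Pdgfc ran from -0.85 to 0.01, the dimmer Vegfa probe set from -0.35 to 0.11, the Nrp1 probe sets from -0.06 to 0.09 and from -0.27 to 0.02, Fgfr3 from -0.34 to 0.50, Fgfr4 from -0.15 to 0.59, Nrp2 from -0.15 to 0.52 and Pdgfd from -0.29 to 0.14. Without BN array 3 and LOU array 1 the values were 0.11 for the dimmer Vegfa probe set, -0.26 for Fgfr3 and 0.03 for Pdgfd, and with signals floored at 32 they were -0.11 for Fgfr3 and 0.14 for Flt4. The 3 comparisons between probe sets of a gene kept their side of the threshold and their sign. Signals near background limit Pdgfc, Fgf1 and the dim receptors.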

Other observations

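Among 16 measured genes of angiopoietin and endothelial growth control none passed the test, and in 3 the strains did not overlap, against 4.38% of all genes. These were also the 3 with the smallest p, a choice that favours separated signals. The receptor gene Egfr had BN signals of 118.2 to 198.6 and LOU signals of 70.2 to 105.3, a log2 difference of 0.89 (limma adjusted p = 0.0579). Tgfb1 had 114.0 to 165.6 in BN and 187.1 to 210.8 in LOU (-0.59, adjusted p = 0.0730). Esm1, a proteoglycan secreted by endothelial cells, had 20.3 to 44.2 in BN, with 3 of 5 arrays above background, and 44.8 to 72.2 in LOU (-0.85, adjusted p = 0.165). Egfr passed in 6 and Tgfb1 in 5 of 19 alternatives, among them the fits without dim probe sets, with a pseudocount and with a variance trend. Of 10 measured class 3 semaphorins and plexins, the other partners of neuropilins, none passed. Plxnd1 differed by 0.33, Plxnb1 by -0.31 and Plxnb2 by -0.29, and all 3 intervals held 0.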
